A study of Mus musculus with 7 samples.

Results

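Podocytes are the epithelial cells that wrap the capillaries of the glomerulus, the filtering unit of the kidney, and 8 genes of these cells were followed in kidneys that lack the lamin B receptor (LBR). The 8 genes are Nphs1, Podxl, Wt1, Synpo, Ptpro, Cd2ap, Actn4 and Plce1, taken by symbol from a table of 24328 gene lines, and all 8 were measured in all 7 libraries. LBR sits in the membrane that lines the nucleus and holds silent chromatin at its edge. RNA-seq of polyadenylated RNA was made from whole kidney of 3 LBR-null mice (genotype Lbric-J/ic-J, mice 4001, 4002 and 4007) and of 1 wild-type mouse (WT, genotype Lbr+/+, mouse 4009). All were of strain C57BL/6J and 4 weeks old. The allele is carried in every cell of the LBR-null mice, so kidney cells were not the only ones to lack LBR, and the study describes these animals as small with sparse fur. Each mouse was sequenced in 2 libraries, except mouse 4002, which had 1. Libraries of a mouse were averaged and counted as 1 replicate. The group comparison is thus 3 mice against 1, its error comes from the LBR-null mice alone, and how much WT mice vary cannot be read from these data.

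Podocytes send out foot processes that interlock around the capillary. Neighbouring foot processes are joined by the slit diaphragm, a cell junction through which the filtrate passes and which keeps plasma proteins out of the urine. Its strands are built from nephrin and related proteins of the immunoglobulin superfamily, which are tied through CD2AP and other adaptors to the actin of the foot process, and loss of several of these proteins causes nephrotic syndrome. Of the 8 genes, Nphs1 encodes a strand of the diaphragm itself, Cd2ap and Plce1 act on its inner side, Actn4 and Synpo encode actin-binding proteins, Podxl and Ptpro encode proteins of the apical surface, and Wt1 encodes a transcription factor. The set is therefore one of podocyte genes rather than of the slit diaphragm alone. Cd2ap and Actn4 are expressed in many cell types, and the other 6, although not confined to podocytes, are called podocyte-restricted below.

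Nphs1 lies head to head with Kirrel2, the gene of another slit diaphragm protein, and the sequences before both genes are shown because Nphs1 lay below and Kirrel2 above WT in every LBR-null library. Cd2ap, which lay above WT in every LBR-null library, is shown beside them as a start site rich in CpG. Each sequence runs from 250 bases before to 50 bases after the RefSeq transcription start on GRCm38.p6, with CpG dinucleotides in capitals. The windows are chr7:30459808-30460107 on the plus strand for Nphs1, chr7:30457466-30457765 on the minus strand for Kirrel2 and chr17:42876375-42876674 on the minus strand for Cd2ap.
Nphs1: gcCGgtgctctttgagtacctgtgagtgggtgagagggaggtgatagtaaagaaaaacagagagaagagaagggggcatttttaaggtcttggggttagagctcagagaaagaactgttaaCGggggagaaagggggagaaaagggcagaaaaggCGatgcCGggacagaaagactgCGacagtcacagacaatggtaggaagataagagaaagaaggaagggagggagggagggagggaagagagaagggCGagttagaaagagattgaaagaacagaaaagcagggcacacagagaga
Kirrel2: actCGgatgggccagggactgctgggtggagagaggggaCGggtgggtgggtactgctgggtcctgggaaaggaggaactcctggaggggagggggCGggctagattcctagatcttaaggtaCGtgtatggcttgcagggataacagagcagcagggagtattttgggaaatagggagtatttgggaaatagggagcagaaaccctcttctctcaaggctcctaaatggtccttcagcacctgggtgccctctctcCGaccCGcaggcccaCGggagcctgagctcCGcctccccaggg
Cd2ap: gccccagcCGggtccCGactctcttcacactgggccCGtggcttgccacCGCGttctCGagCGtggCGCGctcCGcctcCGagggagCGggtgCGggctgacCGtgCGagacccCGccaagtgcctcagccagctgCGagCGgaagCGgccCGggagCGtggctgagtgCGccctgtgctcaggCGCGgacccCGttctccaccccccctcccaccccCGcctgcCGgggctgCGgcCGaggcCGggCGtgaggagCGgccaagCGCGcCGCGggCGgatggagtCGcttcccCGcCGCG
The Nphs1 window held 6 CpG in 300 bases, with an observed over expected CpG ratio of 0.504, and the Kirrel2 window held 8 with a ratio of 0.318. Of the 32851 RefSeq windows, whose median ratio was 0.384, 58.3% had a lower ratio than Nphs1 and 43.9% than Kirrel2. By contrast, the Cd2ap window held 41 CpG with a ratio of 0.924. The table matched 5 of the 8 genes. Of the others matched, Ptpro had a ratio of 0.24, Plce1 of 0.638 and Actn4 of 1.02, so Cd2ap and Actn4, the pair expressed in many cell types, had the highest ratios of the 5. The letters GCGNGGGNG, an element of the kind that WT1 can bind, were sought on both strands and stood in 12.3% of all RefSeq windows, once in the Cd2ap window, at 2 places in the Actn4 window and in none of the Nphs1, Ptpro, Plce1 and Kirrel2 windows.

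In the gene models of mm9, the build to which the reads were aligned, Nphs1 occupies chr7:31243334-31272242 on the plus strand. The Kirrel2 model, chr7:31232553-31242709 on the minus strand, ends 624 bases before it. The RefSeq start of Nphs1 lies further inside, at base 31245077, which is 2367 bases from the Kirrel2 model. The other genes lie at chr6:31469488-31513981 (Podxl, minus strand), chr2:104966686-105013773 (Wt1, plus strand), chr18:60753627-60819796 (Synpo, minus strand), chr6:137200820-137413150 (Ptpro, plus strand), chr17:42929900-43013373 (Cd2ap, minus strand), chr7:29678267-29747359 (Actn4, minus strand) and chr19:38598687-38859588 (Plce1, plus strand). Nphs1, Ptpro and Actn4 each overlap a gene on the opposite strand (Nphs1as, Gm11078 and Capn12), and whether the counting used strand is not given in the sources used here, so reads in those overlaps cannot be assigned with certainty.

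The libraries held 20694016 to 26333284 reads on genes, and a podocyte gene drew between 273 reads (Ptpro) and 14590 reads (Podxl) in a library. Values are normalized counts, that is, read counts divided by the size factor of the library. Lbr RNA itself was at 322, 340 and 471 normalized counts in mice 4001, 4002 and 4007 and at 398 in WT, so its RNA level did not tell the genotypes apart. Xist, the RNA of the inactive X chromosome, was at 5785 and 9940 normalized counts in mice 4001 and 4007 and at 65.3 and 35.5 in mouse 4002 and WT. The Y-linked gene Ddx3y was at 141 and 44.3 in mice 4001 and 4007 and at 1516 and 1284 in mouse 4002 and WT. Mouse 4002 was thus the one LBR-null mouse with the same Xist and Ddx3y pattern as WT. Its values are given separately for each of the 8 podocyte genes, and for only some of the other genes. In that mouse 6 of the 8 podocyte genes were below WT, with a median log2 difference of -0.377. The podocyte markers Nphs1, Podxl, Wt1, Synpo and Ptpro were all present in every library, with a lowest value of 314 normalized counts. The kidneys at this age held almost no RNA of the nephron progenitor gene Six2, which stayed at or below 3.65 normalized counts in every library.

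No difference in the 8 genes passed the test against the spread between mice. By limma on log2(normalized count + 1) of mouse means, 0 of 8 passed an adjusted p of 0.05 with a 2-fold change, and 0 of 8 had an unadjusted p under 0.05. limma called 0% of all 17283 genes tested, although an unadjusted p under 0.05 was reached by 1852 higher and by 1391 lower genes. On read counts summed per mouse, edgeR (quasi-likelihood test) and DESeq2 also called 0 of the 8, where they called 0.224% and 6.6% of all genes. In plain averages, a 2-fold difference between the mean of the LBR-null mice and WT was reached by 0 of 8 genes in either direction. Over the 21468 genes above 0 in either group, 22.7% reached it upward and 8.8% downward. That base includes genes too low for the limma test, whereas all 8 podocyte genes were tested. The direction was nonetheless shared by most of the set. In 6 of 8 genes all 5 LBR-null libraries lay below both WT libraries, a position held by 25.7% of all genes tested, and in 1 of 8, Cd2ap, they all lay above, as in 25.5%. The median log2 fold change of the 8 genes was -0.526, where that of all genes was 0.0073 with quartiles at -0.374 and 0.459. Without mouse 4001 the median of the 8 genes was -0.332. Because whole kidney was sequenced, fewer podocytes and less RNA per podocyte cannot be told apart.

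**Figure D1:**
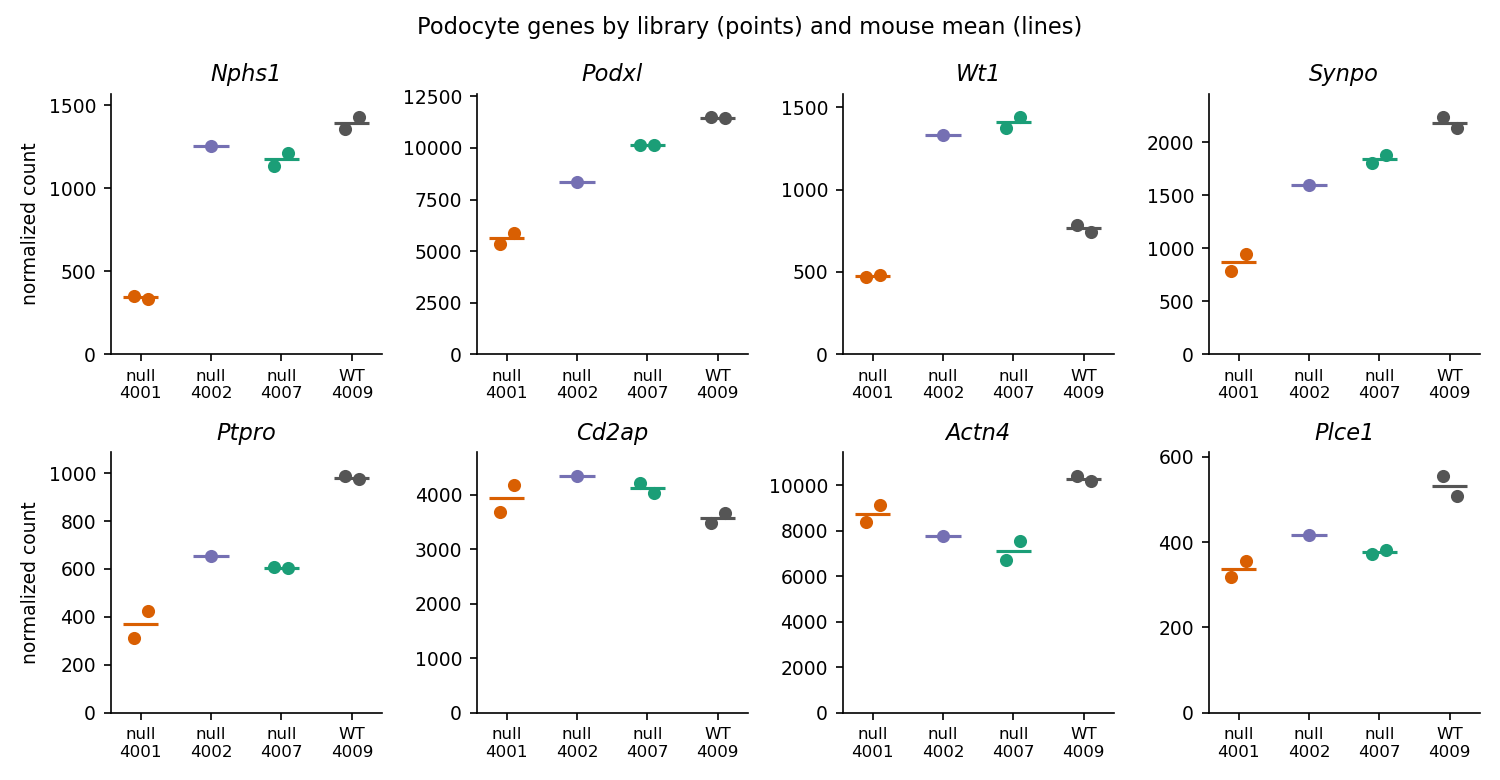
Normalized counts (vertical axes, linear from 0) of the 8 podocyte genes in each library (points), by mouse (horizontal axis), with lines at the mouse means. Mouse 4001 is lowest for 6 genes, whereas Wt1 in mice 4002 and 4007 lies above WT and Cd2ap is above WT in all 3 LBR-null mice.

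Nphs1 encodes nephrin, the adhesion protein whose extracellular parts bridge the gap between foot processes. It was at 350 and 334 normalized counts in the libraries of mouse 4001, 1252 in that of mouse 4002, 1137 and 1213 in those of mouse 4007, and 1354 and 1428 in the WT libraries. All LBR-null libraries lay below WT, but mouse 4001 stood far below the other LBR-null mice, at 24.6% of WT against 90.0% for mouse 4002 and 84.5% for mouse 4007. The LBR-null mean was 923 ± 505 (SD, n = 3 mice) against 1391 in WT. The log2 fold change was -0.805 (SE 0.72, 95% confidence interval -2.54 to 0.93, adjusted p = 0.596, limma), so values as low as that of mouse 4001 and values above WT both lay within the interval. Without mouse 4001 the log2 fold change was -0.20 (adjusted p = 0.538, limma).

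The genes of proteins at the inner side of the diaphragm were more even between the LBR-null mice. Cd2ap, the adaptor that links nephrin to actin, was at 3677 and 4180 normalized counts in mouse 4001, 4346 in mouse 4002, 4211 and 4034 in mouse 4007, and 3472 and 3661 in WT. It was the one gene of the set with every LBR-null library above both WT libraries, by a small margin. Its LBR-null mean of 4132 ± 209 (SD, n = 3 mice) compared with 3567 in WT, a log2 fold change of 0.21 (SE 0.245, adjusted p = 0.692, limma). Plce1, a phospholipase C that is mutated in a childhood nephrotic syndrome, was at 318 and 355 in mouse 4001, 418 in mouse 4002, 373 and 382 in mouse 4007, and 556 and 508 in WT. All LBR-null libraries were below WT, and the mice were close to each other, at 63.3%, 78.6% and 70.9% of WT. The mean was 377 ± 40.7 (SD, n = 3 mice) against 532, with a log2 fold change of -0.50 (SE 0.268, 95% confidence interval -1.15 to 0.15, adjusted p = 0.373, limma).

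Of the actin-binding genes, Synpo followed Nphs1 in which mouse was lowest, and Actn4 did not. Synpo encodes synaptopodin, which stabilises actin bundles in foot processes. It was at 788 and 946 normalized counts in mouse 4001, 1594 in mouse 4002, 1805 and 1878 in mouse 4007, and 2236 and 2130 in WT. No LBR-null library reached WT, and mouse 4001 was at 39.7% of WT, mouse 4002 at 73.0% and mouse 4007 at 84.3%. The mean was 1434 ± 507 (SD, n = 3 mice) against 2183, a log2 fold change of -0.68 (SE 0.435, adjusted p = 0.455, limma), which was -0.35 without mouse 4001. Actn4 encodes alpha-actinin-4, an actin crosslinker found in most cells of the kidney. It was at 8382 and 9122 in mouse 4001, 7770 in mouse 4002, 6730 and 7546 in mouse 4007, and 10430 and 10180 in WT. Here too every LBR-null library was below WT, but mouse 4001 was the highest of the LBR-null mice, at 84.9% of WT. The mean was 7887 ± 814 (SD, n = 3 mice) against 10310, a log2 fold change of -0.39 (SE 0.292, adjusted p = 0.518, limma).

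The apical surface genes were below WT in every LBR-null library. Podxl encodes podocalyxin, the sialomucin whose negative charge keeps foot processes apart, and is also expressed by endothelium. It was at 5368 and 5855 normalized counts in mouse 4001, 8365 in mouse 4002, 10160 and 10160 in mouse 4007, and 11490 and 11430 in WT. The order of the mice was again 4001, 4002, 4007 and WT, at 49.0%, 73.0% and 88.7% of WT for the LBR-null mice. The mean was 8045 ± 2291 (SD, n = 3 mice) against 11460, a log2 fold change of -0.55 (SE 0.396, adjusted p = 0.503, limma), which was -0.31 without mouse 4001. Ptpro encodes a receptor tyrosine phosphatase of the foot process, known as GLEPP1. It was at 314 and 426 in mouse 4001, 656 in mouse 4002, 606 and 604 in mouse 4007, and 989 and 973 in WT. Mice 4001, 4002 and 4007 were at 37.7%, 66.9% and 61.7% of WT. The mean was 544 ± 153 (SD, n = 3 mice) against 981, and the log2 fold change was -0.89 (SE 0.373, 95% confidence interval -1.79 to 0.01, adjusted p = 0.269, limma). Ptpro differed most between 2 libraries of the same mouse, by 1.36 times in mouse 4001, and without mouse 4002 it was the 1 gene of the set that reached a 2-fold difference in averages.

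Wt1, the transcription factor that is needed to form and maintain podocytes, behaved differently. It was at 467 and 481 normalized counts in mouse 4001, 1329 in mouse 4002, 1376 and 1440 in mouse 4007, and 785 and 745 in WT. Mouse 4001 was thus at 62.0% of WT, whereas mice 4002 and 4007 were at 174% and 184%, and the groups overlapped. The mean was 1071 ± 518 (SD, n = 3 mice) against 765, with a log2 fold change of 0.33 (SE 0.615, 95% confidence interval -1.16 to 1.82, adjusted p = 0.815, limma). Leaving out mouse 4001 brought the log2 fold change to 0.84 with an adjusted p of 0.0472 in limma, past the p threshold and short of the 2-fold one. Leaving out mouse 4002 or mouse 4007 instead brought it to 0.10 (adjusted p = 0.952) or 0.05 (adjusted p = 0.989). The fit without mouse 4001 rests on 2 LBR-null mice and 1 WT mouse, and it called many genes among all those tested.

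Per kilobase of exon, the WT levels ran from Podxl (2090 normalized counts per kb) and Actn4 (2050) through Cd2ap (661), Nphs1 (263), Synpo (229), Ptpro (143) and Wt1 (123) to Plce1 (55.7). The mean levels of the LBR-null mice were 1470 for Podxl, 1570 for Actn4, 765 for Cd2ap, 175 for Nphs1, 150 for Synpo, 79.4 for Ptpro, 173 for Wt1 and 39.5 for Plce1. In single mice the order of Podxl and Actn4 differed, with 1020 against 1740 in mouse 4001 and 1850 against 1420 in mouse 4007. Wt1 was next to last in WT and stood beside Nphs1 and Synpo in the LBR-null mice, where these genes lay within 1 SD of each other.

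The mice differed more than the libraries of a mouse. Between both libraries of a mouse the 8 genes had a median ratio of 1.1 in mouse 4001, 1.04 in mouse 4007 and 1.05 in WT. The median log2 difference from WT over the 8 genes, in contrast, ran from -0.859 (mouse 4001) to -0.244 (mouse 4007). In mouse 4001, 4 of the 8 genes (Nphs1, Podxl, Synpo and Ptpro) were at or below 50% of WT, as were 10.8% of all genes tested in that mouse, and in mice 4002 and 4007 none of the 8 was, against 7.21% and 9.52% of all genes. Plce1, Cd2ap and Actn4 differed less between the mice than the other 5 genes did.

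**Figure D2:**
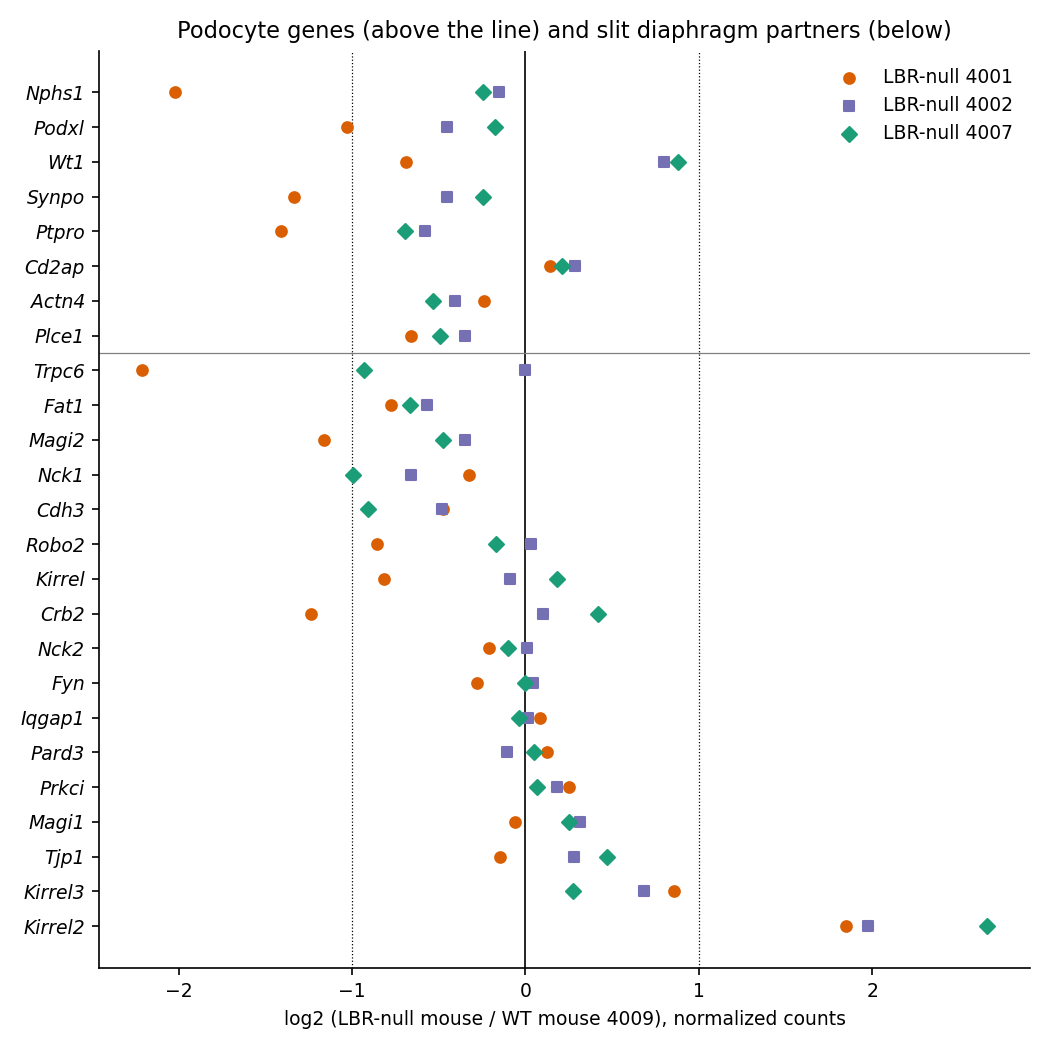
Log2 of the normalized count in each LBR-null mouse over that in the WT mouse (horizontal axis) for the 8 podocyte genes and 17 slit diaphragm partner genes (vertical axis), with dotted lines at 2-fold. Mouse 4001 lies furthest left for Nphs1, Podxl, Synpo and Ptpro, and Kirrel2 lies beyond 2-fold to the right in all 3 mice.

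A pair of other measures set mouse 4001 apart. The first was the RNA of some glomerular endothelial genes. The summed level of the endothelial list of 12 genes was 25528 normalized counts in mouse 4001 and 39596 in WT, with mice 4002 (38393) and 4007 (35685) nearer to WT, and 8 of the genes were below WT in mouse 4001 and 6 in each of the other LBR-null mice. The members of the list did not move together in mouse 4001. Plat, the tissue plasminogen activator, was at 22.4% of WT in that mouse, and Ehd3, an endocytic protein of glomerular endothelial cells, was at 492 normalized counts against 1972. Eng was at 46.1%, Emcn at 54.1%, Plvap at 59.0% and Cdh5 at 71.2%. Kdr, the main VEGF receptor of all endothelium, was at 93.2%, Tek at 97.9%, Pecam1 at 115%, Nostrin at 125%, Flt1 at 154% and Sost at 348%. Plat and Ehd3 were low in mouse 4001 alone, at 95.6% to 108% of WT in the other LBR-null mice. Eng was at 78.5% and 59.0% of WT in mice 4002 and 4007, and Cdh5 at 75.9% and 61.1%. Flt1 (156% and 166%) and Nostrin (126% and 132%) did not set mouse 4001 apart. The genes of this list other than Sost, Eng, Plat and Flt1 were named after their values were seen. The share of glomeruli in each aliquot was not measured, and its part in the low podocyte values was not tested.

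The second measure was the GC content of transcripts. In mouse 4001 the median log2 difference from WT ran from 0.139 in the bin of genes with the lowest GC to -0.363 in the bin with the highest, over 11850 genes in 10 bins, and in mice 4002 and 4007 the medians of all bins stayed between -0.15 and 0.0404. Nphs1 (56.4% GC) and Synpo (58.2% GC) were in the bin second from the top, where the median of mouse 4001 was -0.275. After the median of the bin was taken off, mouse 4001 was at -1.75 for Nphs1, -1.38 for Ptpro and -1.06 for Synpo. Podxl was at -1.0, Plce1 at -0.70 and Wt1 at -0.59. Cd2ap (38.8% GC) was at 0.00 in that mouse and Actn4 at -0.05. The part of GC content in the low values of mouse 4001 was not tested.

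**Figure D3:**
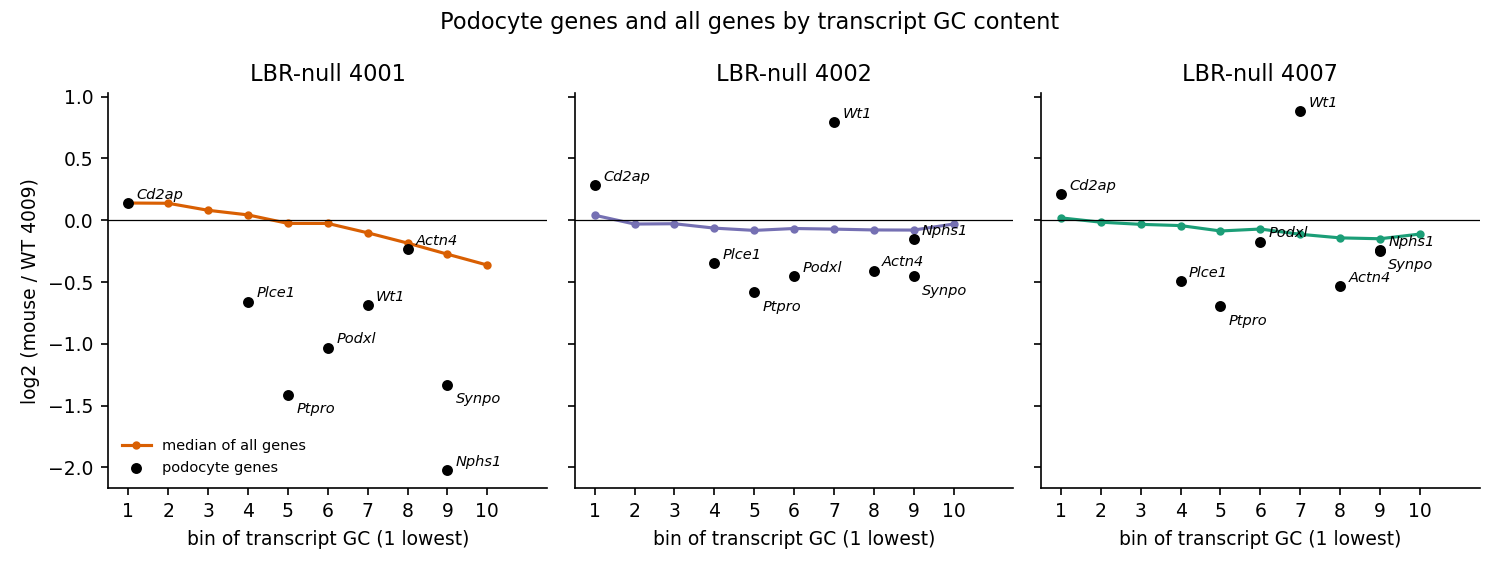
Log2 of each LBR-null mouse over the WT mouse (vertical axis) for the 8 podocyte genes (black points) and the median of all genes (line) by bin of transcript GC content from lowest to highest (horizontal axis), 1185 genes per bin. The line falls from 0.139 to -0.363 in mouse 4001, and Nphs1, Ptpro, Synpo and Podxl lie well below it there.

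The genes were also set against each other within a library. The log2 level of each was taken relative to the mean log2 level of the other podocyte-restricted genes in the same library. Apart from Wt1, these reference genes had log2 fold changes of -0.89 (Ptpro) to -0.50 (Plce1). A gene that did not change would therefore lie above WT on this scale. The share of all genes above or below WT on it was not counted. On this scale Wt1 was at -0.62, -0.03 and 0.03 in mice 4001, 4002 and 4007 and at -1.22 in WT, a difference of 1.02, and all 5 LBR-null libraries were above both WT libraries, mouse 4001 included. The ratio of Wt1 to Nphs1 normalized counts was between 1.06 and 1.44 in the LBR-null libraries and 0.58 and 0.522 in WT. Ptpro, with a difference of -0.46, and Synpo, with -0.19, were below WT in every LBR-null library on this scale, and Nphs1, Podxl and Plce1 overlapped with WT. Cd2ap, with a difference of 0.73, was above WT in every LBR-null library, as Wt1 was. The Plce1 difference was 0.02 and that of Actn4 0.13, each of the opposite sign to its fold change. These turns follow by arithmetic from the reference genes, most of which lay below WT. Outside the set, the differences were 2.62 for Kirrel2, 1.08 for Foxc1, 0.47 for Ddn and 0.28 for Kirrel, above WT in every LBR-null library. The log2 fold changes of Ddn and Kirrel were -0.04 and -0.24, so their place above WT came with the scale. Tcf21 was below WT in every LBR-null library, with a difference of -0.97. Foxc2 (-0.07), Rhpn1 (-0.04), Ehd3 (-0.11) and Plat (-0.19) overlapped with WT. The choice of this scale and of these added genes was made after the values were seen, and no test was run on it.

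**Figure D4:**
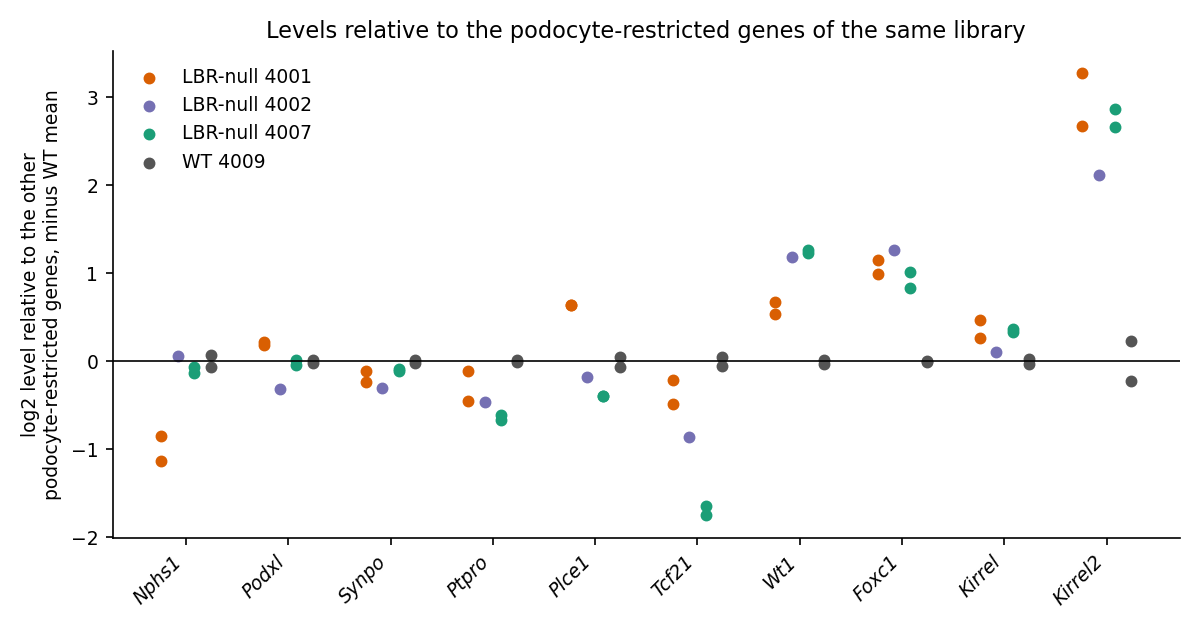
Log2 level of 10 podocyte genes relative to the other podocyte-restricted genes of the same library, minus the WT mean (vertical axis), in each library (points, coloured by mouse). Wt1, Foxc1, Kirrel and Kirrel2 lie above WT in every LBR-null library, and Ptpro, Synpo and Tcf21 lie below. Most reference genes were below WT, so an unchanged gene would also lie above WT here.

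The genes whose products join the slit diaphragm were led in size of difference by Kirrel2. Kirrel2 encodes a relative of nephrin and was low in kidney, at 65.5 and 47.9 normalized counts in mouse 4001, 61.9 in mouse 4002, 91.3 and 108 in mouse 4007, and 13.4 and 18.1 in WT. Every LBR-null library was above both WT libraries, and the mean of 72.8 ± 23.6 (SD, n = 3 mice) was 4.63 times the WT value of 15.7. The log2 fold change was 2.10 (SE 0.481, 95% confidence interval 0.93 to 3.26). limma gave an adjusted p of 0.114 and edgeR of 0.138, and DESeq2, with an adjusted p of 0.00844, called it. Its neighbour Nphs1 lay below WT, and the ratio of Kirrel2 to Nphs1 normalized counts was 0.0495 to 0.187 in the LBR-null libraries and 0.00989 and 0.0127 in WT.

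Of 17 slit diaphragm partners, 1 was 2-fold higher in averages (Kirrel2) and none was 2-fold lower. The shares were 22.7% and 8.8% of the genes above 0 in either group, low ones included. limma called none of the 17 (an unadjusted p under 0.05 was reached by 1 higher and 1 lower gene). DESeq2 called 1, Kirrel2, as it did 6.6% of all genes. All LBR-null libraries were below WT for 4 of the 17 genes and above WT for 2, no more than the 25.7% and 25.5% of all genes tested, and the median log2 fold change was -0.101, or -0.011 without mouse 4001. The genes below WT were Magi2 (-0.66), a scaffold that binds nephrin, the protocadherin Fat1 (-0.67), the adaptor Nck1 (-0.66), which links phosphorylated nephrin to actin, and the cadherin Cdh3 (-0.62). Kirrel3, another relative of nephrin, was above WT beside Kirrel2, with a log2 fold change of 0.59. The other 11 overlapped with WT. Their log2 fold changes were -1.0 for Trpc6, a calcium channel of the foot process at no more than 41.3 normalized counts in a mouse, -0.33 for Robo2, -0.24 for Kirrel, -0.24 for the polarity gene Crb2, -0.10 for Nck2, -0.08 for the kinase gene Fyn, 0.02 for Iqgap1, 0.02 for Pard3, 0.17 for Prkci, 0.17 for Magi1 and 0.20 for Tjp1, which encodes the junction protein ZO-1. Several of these values moved by over 1.5 times when 1 LBR-null mouse was left out. Without mouse 4001 the log2 fold change was -0.45 for Trpc6, -0.07 for Robo2, -0.41 for Magi2, -0.05 for Nck2, 0.28 for Magi1 and 0.38 for Tjp1. Trpc6 was at -1.5 and Robo2 at -0.51 without mouse 4002, and Tjp1 was at 0.07 without mouse 4007.

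In the list of foot process cytoskeleton and adhesion genes, 24 of 25 symbols were measured, and Tns2 was also listed under an older symbol. Of the measured genes, 14 were below WT in every LBR-null library and 2 above. These shares are to be read against 25.7% below and 25.5% above over all genes tested. The median log2 fold change was -0.338. Nestin (Nes), an intermediate filament protein that podocytes keep into adult life, was the 1 gene past 2-fold in averages, with 535, 770 and 718 normalized counts in mice 4001, 4002 and 4007 and 1552 in WT. Its log2 fold change was -1.22 (SE 0.29), with an adjusted p of 0.115 in limma and of 0.0142 in DESeq2. The next largest log2 fold changes were those of Tns2 (0.95), a focal adhesion protein whose loss causes glomerular disease in mice, Inf2 (0.61), an actin-assembling formin, and talin-1, Tln1 (-0.58).

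Genes of podocyte identity gave lower values for 19 of 23 genes in fold change, with 9 below WT and 1 above in every LBR-null library (all genes tested, 25.7% and 25.5%), and a median log2 fold change of -0.299, or -0.188 without mouse 4001. Tcf21, a transcription factor of podocytes and of stromal cells, was at 625, 878 and 501 normalized counts in the LBR-null mice and 1824 in WT, a log2 fold change of -1.49 (SE 0.348, adjusted p = 0.115 in limma and 0.00871 in DESeq2). Htra1, a secreted protease, was at 748, 1032 and 941 against 2218, a log2 fold change of -1.30 (adjusted p = 0.107 in limma and 0.00397 in DESeq2). Gpr137c was at 55, 24.1 and 56.2 against 10.5, a log2 fold change of 1.91, and neither limma nor DESeq2 called it (adjusted p = 0.174 and 0.0602). Enpep, the aminopeptidase of podocytes and proximal tubule, had a log2 fold change of -0.79. Foxc1, another transcription factor of podocytes, was like Wt1 below WT in mouse 4001 and above it in the other LBR-null mice, at 758, 1725 and 1398 normalized counts against 825. It was named after its values were seen.

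The glomerular basement membrane, to which foot processes attach, showed 6 of 13 genes below WT in every LBR-null library and none above (all genes tested, 25.7% and 25.5%), with a median log2 fold change of -0.322. Nid1, which links laminin to collagen IV, was at 2993, 3053 and 2603 normalized counts against 5945, a log2 fold change of -1.05 (SE 0.249, adjusted p = 0.115 in limma and 0.0104 in DESeq2). Col4a1 had a log2 fold change of -0.98, past the threshold in DESeq2 (adjusted p = 0.0338) and not in limma (adjusted p = 0.198). Hspg2 (-0.60) and Col4a2 (-0.59) followed. These 4 genes are expressed in many basement membranes of the kidney. Of the collagens that podocytes secrete into the mature membrane, Col4a3 was at 4849, 9445 and 7056 normalized counts against 9391, Col4a4 at 3437, 3991 and 3482 against 4434, and Col4a5 at 2420, 4075 and 2335 against 2966.

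The plot of list medians by mouse sets the genes of other kidney cell types beside the podocyte genes. Of all genes tested, 25.7% had every LBR-null library below WT and 25.5% had every one above. Mesangial genes, from the cells that hold the capillary tuft, had a median log2 fold change of -0.461, with 6 of 11 below WT in every LBR-null library (Itga8 -1.49, Ptn -1.45, Acta2 -1.01 and Sfrp2 -0.85). Glomerular endothelial genes had a median of -0.141 (Sost 1.02, Eng -0.74, Plat -0.71 and Flt1 0.67), and parietal epithelial genes, from the outer wall of the glomerular capsule, had a median of -0.127 (Krt18 0.86, Krt19 -0.49, Cldn1 0.41 and Pax2 -0.40). Proximal tubule genes lay furthest from WT, with a median of -1.60. In every LBR-null library 9 of the 12 were below WT (Slc22a6 -4.19, Miox -4.18, Slc13a3 -2.24 and Slc5a2 -2.02) and the other 3 were above (Slc5a12 1.30, Aqp1 0.65 and Slc27a2 0.51, named after their values were seen). The loop and distal nephron list had a median of -0.071 (Pvalb -2.82, Slc12a1 0.82, Calb1 -0.74 and Scnn1b 0.51), the nephron progenitor list of -0.12 (Crym -1.59, Cited1 -1.39, Meox1 -0.69 and Lhx1 0.49) and the leukocyte list of -0.445 (S100a9 5.12, S100a8 3.0, Cd3e 1.14 and Adgre1 -0.80). Some medians near 0 turned sign with the mice or libraries used. The endothelial one was 0.0287 without mouse 4001, the loop and distal one 0.225 without mouse 4007, and the progenitor one ran from -1.04 with a minimum mean of 50 to 0.0129 with second libraries. The mesangial median was -0.295 without mouse 4001. Of the named genes, Pax2 was at 39.9%, 129% and 84.3% of WT in mice 4001, 4002 and 4007. Sfrp2 was at 25.6%, 92.8% and 71.5%. limma called no gene of any list, and the counts at an unadjusted p under 0.05 were highest for the proximal tubule, with 8 lower and 1 higher. DESeq2 called 6 proximal tubule genes lower and 1 higher, together with Pvalb, Crym, S100a8 and S100a9, and edgeR called Slc22a6, where these tools called 6.6% and 0.224% of all genes. The summed level of the proximal tubule list was 315800, 353810 and 202370 normalized counts in mice 4001, 4002 and 4007 and 622880 in WT, and that of the loop and distal list was 200970, 158450 and 106390 against 129890. How far such shifts in abundant tubule RNA bear on the normalized counts of podocyte genes was not tested.

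**Figure D5:**
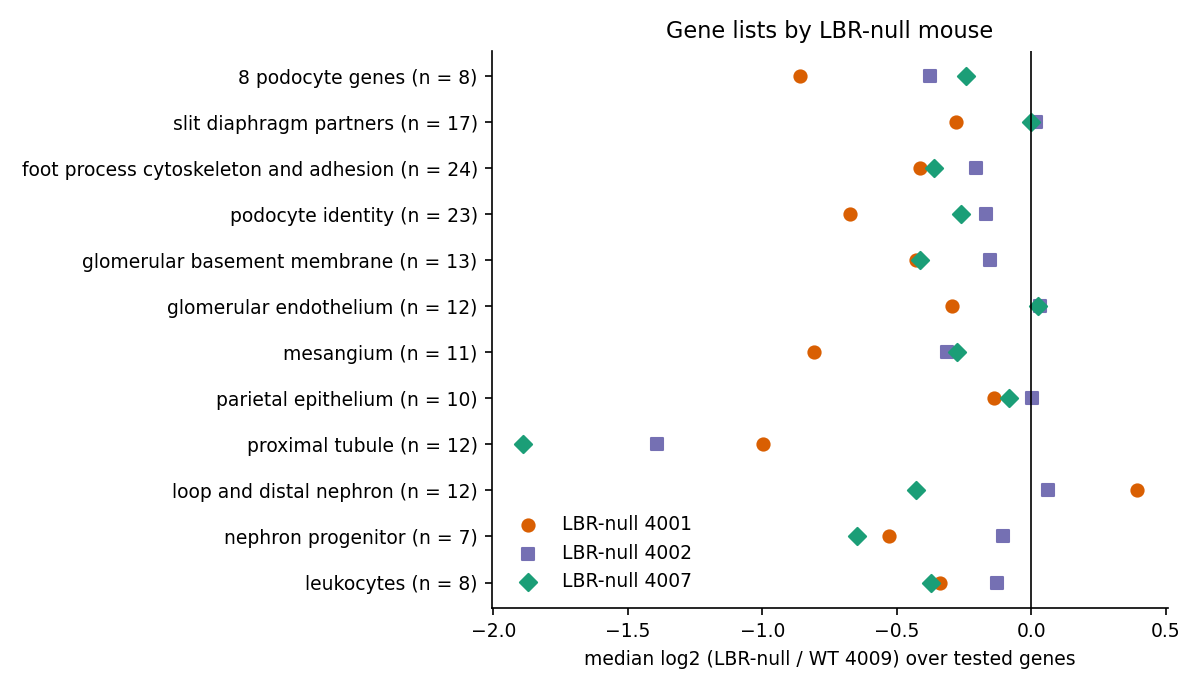
Median log2 of each LBR-null mouse over the WT mouse (horizontal axis) across the tested genes of 12 lists (vertical axis, n genes each). The 8 podocyte genes are at -0.859, -0.377 and -0.244 in mice 4001, 4002 and 4007, and the mesangial list is nearest to them in mouse 4001.

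Across all 7 libraries, the genes most like the mean profile of the 6 podocyte-restricted genes included Adam1a, Plekhg2, Acap3, Card10, Meis2, Shank3 and Prr12. Likeness was the root mean square difference of log2 levels, each centred on its own mean over the libraries, among 13050 genes with a mean of at least 50. These 7 genes, all within the first 8 ranks, differed from the profile by 0.0486 (Adam1a) to 0.0814 (Prr12), where the median gene differed by 0.561. Adam1a, for example, was at 82.5, 164 and 170 normalized counts in mice 4001, 4002 and 4007 and at 198 in WT. None of the 7 was in the lists above, and the first listed gene was the mesangial receptor gene Pdgfrb at rank 38, followed by the endothelial gene Emcn at rank 58 and the podocyte gene Thsd7a at rank 79. Of the 6 genes that make up the profile, Synpo (0.0883) and Podxl (0.131) lay closest to it and Wt1 (0.429) furthest. Cd2ap (0.521) and Actn4 (0.538) do not enter the profile, so their distances cannot be set beside those of the 6.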

How the data were processed

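Whole-kidney polyA RNA-seq of 7 libraries from 4 mice was used. According to the submitters' processing notes, STAR 2.6.0, DESeq2 1.25.1 and mm9 were used. The signal the authors deposited per gene symbol is a read count over the library's size factor. The counting program and its annotation are not given in the sources used here, nor is whether libraries of a mouse came from separate aliquots. All values (100%) were whole multiples of 1 read within 0.01 read, so read counts were recovered, and 1 read was worth 0.787 to 1.15 normalized counts. Totals were 20694016 to 26333284 reads on genes.

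Library values were averaged within a mouse. The main test was limma 3.58.1 in R 4.3.3, with moderated variances that follow a trend, on log2(normalized count + 1). It covered 17283 genes whose mean reached 5, and p-values were adjusted over all 17283 by Benjamini-Hochberg. A gene was called at an adjusted p under 0.05 and a 2-fold change. This test takes the variance of WT to equal that of the LBR-null group. edgeR 4.0.16 (quasi-likelihood) and DESeq2 1.42.0 were run on recovered reads summed per mouse, and DESeq2 left 4162 genes without an adjusted p. Other alternatives were the scaling, the pseudocount (0.5 and 5), the filter (none and 50), single libraries and leaving out each LBR-null mouse. limma, edgeR and DESeq2 with all mice included were tested on simulated data, and the other alternatives were not. GC content was that of the longest coding transcript in GENCODE vM1, known for 90.7% of 13058 genes with a mean of at least 50. Promoter windows are from RefSeq. All 8 genes, all slit diaphragm partners, and up to 4 genes with the largest fold change of every other list were named, with every gene past 2-fold in averages in the podocyte and basement membrane lists. A few genes that these rules would name are not reported here and were left out of the list counts. The 8 genes and the lists were chosen with earlier results of these data known.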

Additional observations from a re-analysis of the deposited data

How the results depend on the processing

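The 8 podocyte genes kept the direction of their fold change in all 104 pairs of gene and alternative setting (13 settings), and 1 pair passed an adjusted p of 0.05 (Wt1 without mouse 4001, limma adjusted p = 0.0472). The filter settings leave each fold change as it is, and the pseudocounts hardly move genes of this level, so those pairs could not turn. The scales added after the data were seen are not among the 13 settings. The number of the 8 genes at a 2-fold difference in averages was 0 to 1 when each LBR-null mouse was left out in turn. It was 0 under the other alternatives that could change it. Without mouse 4001 the log2 fold change of Nphs1 was -0.197, of Podxl -0.314 and of Synpo -0.35, and the median of the 8 genes -0.332 (-0.622 to -0.332 over the mice left out). Wt1 ranged from 0.054 to 0.838. Among the slit diaphragm partners, Pard3 went to -0.00526 with TMM scaling, -0.0319 with the first library of each mouse, -0.0133 in edgeR and -0.0145 in DESeq2, and Iqgap1 to -0.00908 with TMM scaling, -0.00919 in edgeR and -0.0106 in DESeq2. When each LBR-null mouse was left out, the log2 fold change ran from -0.452 to 0.0475 for Kirrel, -0.139 to 0.0209 for Fyn, -0.563 to 0.259 for Crb2, -0.0271 to 0.0879 for Pard3 and -0.0112 to 0.0501 for Iqgap1, with the turn in each of these without mouse 4001. On the scale relative to the podocyte-restricted genes, added after the data were seen, Plce1 turned from -0.50 to 0.0221, Actn4 from -0.39 to 0.125 and Kirrel from -0.24 to 0.275. Centring on the GC bin, also added later, turned none of 10 signs. The turns on the relative scale follow by arithmetic from its reference genes, most of which lay below WT. The cause of the other turns was not tested. Kirrel2 passed the threshold without mouse 4001 (adjusted p = 0.0329, limma) as well as in DESeq2. The number of genes called in all was 0 in limma, 41 in edgeR and 1142 in DESeq2, and in limma 505 higher and 658 lower without mouse 4001 and 338 and 287 without mouse 4002. No paired analysis was possible because the replicate numbers in the labels count libraries within a mouse, and the groups share no mouse. Only 3 mice against 1 were compared, and no setting varied the read depth.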
